A study of Mus musculus with 12 samples.

Results

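The genes described here encode the protein subunits of the mitochondrial respiratory chain and ATP synthase. They were chosen by symbol: nuclear genes starting with Nduf and a subunit letter and number, Sdha to Sdhd, Uqcr genes, Cyc1, Cox4 to Cox8 and Atp5 genes, and the mitochondrial genes mt-Nd, mt-Cytb, mt-Co and mt-Atp. In all, 95 of the 17362 genes in the table met this rule, of which 82 were nuclear and 13 mitochondrial. The nuclear members comprised 35 genes of complex I, 4 of complex II, 9 of complex III, 18 of complex IV and 16 of complex V. The mitochondrial members comprised 7 genes of complex I, 1 of complex III, 3 of complex IV and 2 of complex V. Ndufa4 and Ndufa4l2 were counted with complex IV, where the Ndufa4 protein is now placed.

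Complexes I and II take electrons from NADH and succinate, complex III passes them to cytochrome c, and complex IV passes them to oxygen. Complexes I, III and IV pump protons across the inner mitochondrial membrane, and complex V, the ATP synthase, uses the returning protons to make ATP. All complexes except complex II combine subunits from both genomes: nuclear genes are transcribed one by one, while mitochondrial genes are copied from circular DNA as long transcripts that are then cut into single RNAs. Endothelial cells, which line blood vessels, are known to draw much of their ATP from glycolysis.

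RNA was sequenced from cells sorted out of the marrow of crushed tibia, femur and iliac bone of untreated B6 mice, with 3 libraries for each of 4 populations. CD31 is a surface protein of endothelial cells, Sca1 (encoded by Ly6a) of arterial and other endothelium, EMCN (endomucin) of capillary and sinusoidal endothelium, and CD45 (encoded by Ptprc) of blood cells. All gates were CD31+, Sca1+ and CD45-. The CD200-high capillary cells were in addition CD200Hi and EMCN-, the type H vessel cells EMCN+ and the arterial cells CD200-, and the sinusoidal gate names no further marker. The labels speak of triplicates from 6 mice and number the libraries of each population as mouse 1, 2 and 3. Whether a number stands for the same animal in all 4 populations is not stated, so p-values measure the spread between these libraries, and values with the mouse number as a block are given where they change a call of a mitochondrial member.

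Values are the deposited log2 CPM, where CPM stands for reads per 1000000 of a library size set by the authors. Each comparison of populations was tested with limma over the 17086 genes that passed a filter on low reads, and a gene is said to be called where the p adjusted by Benjamini-Hochberg was under 0.05. All 95 members passed the filter. Listed reads ranged from 7.33 M to 21.6 M per library (M, 1000000 reads), and the shallowest were replicate 3 of CD200-high and replicate 3 of arterial. The libraries labelled sinusoidal held 8 to 24 reads of Cdh5, an endothelial cadherin, and 228 to 599 reads of Ly6a, against at least 1492 and 5689 in each of the other libraries. Their label thus goes against these markers, and they are called the labelled sinusoidal libraries throughout. Ptprc, which encodes the CD45 that all gates excluded, had 1876 to 2085 reads in these libraries and 1865 to 2924 in the arterial libraries, against 211 to 483 in the CD200-high and type H libraries. Emcn was read at 8.26 ± 0.42 (SD, n = 3) log2 CPM in CD200-high libraries although that gate is EMCN-. Cd200 was read at 7.68 ± 0.11 log2 CPM (2110 to 3291 reads) in arterial libraries although that gate is CD200-. Its level was 7.80 ± 0.32 in type H and 9.81 ± 0.02 in CD200-high libraries.

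Reads of the 13 mitochondrial subunit genes made up a larger share of the arterial libraries than of any other. They took 4.97%, 4.75% and 6.52% of listed reads in arterial replicates 1, 2 and 3. The CD200-high libraries held 2.18%, 2.31% and 3.62%, and the type H libraries 2.82%, 2.31% and 3.01%. The labelled sinusoidal libraries held 3.38%, 3.26% and 3.52%. Thus no library of another population reached the lowest arterial library, while the type H range lay below the labelled sinusoidal range and the CD200-high range overlapped both. In bulk samples such as these, fewer cells of a type and less RNA per cell cannot be told apart.

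The 82 nuclear subunit genes did not follow this order. They took 1.42%, 1.21% and 1.17% of reads in the arterial libraries, 1.18%, 1.17% and 1.11% in the CD200-high, 1.35%, 1.27% and 1.29% in the type H and 1.58%, 1.68% and 1.58% in the labelled sinusoidal libraries. The highest shares were therefore those of the labelled sinusoidal libraries, and the arterial libraries overlapped both the CD200-high and the type H range. Each read of a nuclear member was matched by 4.33 ± 1.08 (SD, n = 3) mitochondrial reads in arterial libraries, from 3.50 to 5.55. The corresponding values were 2.36 ± 0.776 in CD200-high, 2.08 ± 0.258 in the type H and 2.11 ± 0.143 in the labelled sinusoidal libraries. CD200-high replicate 3, at 3.25, was the library nearest to the arterial range.

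**Figure D1:**
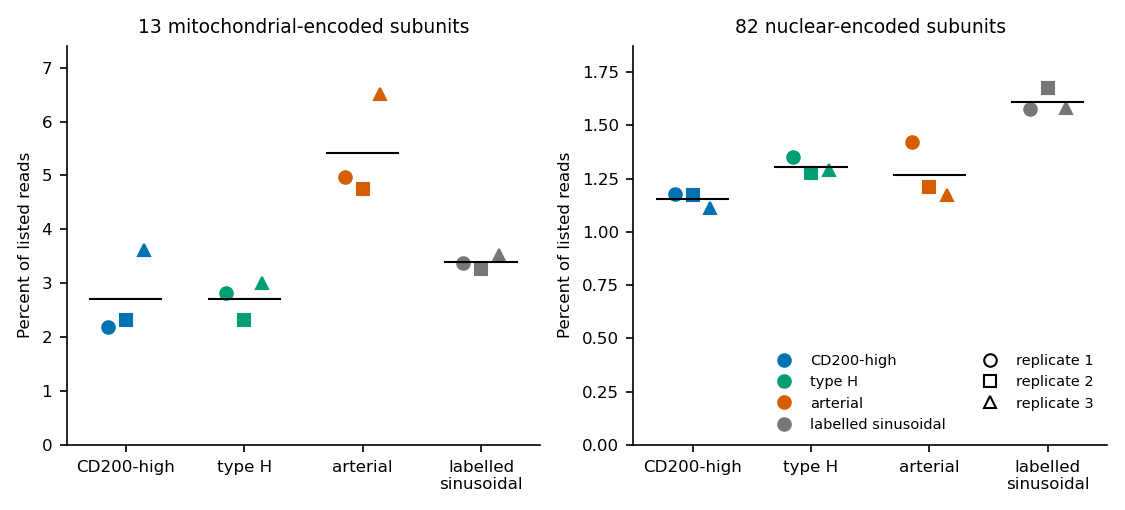
Percent of listed reads (vertical axis, from 0) taken by the 13 mitochondrial (left) and 82 nuclear (right) subunit genes, with 1 point per library, a shape per replicate number and a line at each population's mean of 3 libraries. The arterial points lie between 4.75% and 6.52% on the left, above all others, and among the rest on the right, where the labelled sinusoidal points are highest.

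The populations also differed in transcripts of other cell types, which the choice of genes did not use. Neutrophil transcripts (14 of 14 listed markers in the table) summed to 2.33% to 3.54% of reads in arterial libraries, against 0.615% to 1.09% in CD200-high, 0.466% to 0.810% in the type H and 0.709% to 1.22% in the labelled sinusoidal libraries. Erythroid transcripts (11 of 12) summed to 1.08% to 2.23% in arterial libraries and to 0.212% to 0.674% over the other 9 libraries. Macrophage transcripts (10 of 10) summed to 0.764% to 1.13% in arterial libraries and to 0.139% to 0.339% elsewhere. Single markers did not all follow these sums. Between type H and arterial, where limma called 20.7% of all genes, 2 macrophage markers were higher in type H and 4 lower. Of the erythroid markers, 1 was higher in type H and 6 lower. No marker of these 3 lists was at 0 in a whole population. The labelled sinusoidal libraries, where the nuclear share was highest, stood out in other blood lists. B and plasma cell transcripts (12 of 12) summed to 1.26% to 1.44% there, 0.189% to 0.491% in arterial, 0.0225% to 0.0365% in CD200-high, where Jchain was at 0, and 0.0142% to 0.0219% in type H libraries. Megakaryocyte and platelet transcripts (10 of 10) summed to 0.452% to 0.582% there, 0.0873% to 0.227% in arterial and at most 0.0110% in the remaining libraries. The CD200-high libraries stood apart in stromal and bone transcripts (15 of 15), which took 12.5% to 17.1% of their reads, against 0.414% to 0.540% in type H, where Postn was at 0, 1.76% to 2.02% in arterial and 0.912% to 1.94% in labelled sinusoidal libraries. Pan-endothelial transcripts (16 of 16) summed to 0.191% to 0.258% in arterial, 0.311% to 0.622% in CD200-high and 1.01% to 1.07% in type H libraries. In labelled sinusoidal libraries they summed to 0.0280% to 0.0296%, with Sox17 at 0. Reticular stroma and adipocyte transcripts (8 of 11) summed to 0.609% to 1.14% in arterial, 0.657% to 0.835% in type H, 0.273% to 0.569% in CD200-high and 0.0375% to 0.0832% in labelled sinusoidal libraries. The part of any of these cells in the subunit shares and in the differences of single members was not tested.

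Every mitochondrial gene had its highest mean in the arterial population, and 8 of 13 were called higher in arterial than in each of the other 3 populations. Across all genes tested, 1% passed the same 3 comparisons, and no nuclear member did. No member of either genome was lowest in arterial by this rule (0.0819% of all genes), highest or lowest in CD200-high (1.57% and 1.11%) or lowest in the labelled sinusoidal libraries (4.86%). The 8 genes were mt-Atp6 and mt-Atp8 (complex V), mt-Co1, mt-Co2 and mt-Co3 (the catalytic core of complex IV), mt-Cytb (cytochrome b of complex III) and mt-Nd1 and mt-Nd4l (membrane subunits of complex I). Of the 33 mitochondrial calls over all comparisons, 10 held in each of the 12 fits that left out 1 library. None of these 8 genes kept all 3 of its calls in every such fit. For 11 of 13 genes all 3 arterial libraries lay above the other 9, a separation that 4.28% of all genes tested and 1 of 82 nuclear members showed. Without CD200-high replicate 3, it held for 13 of 13 over the remaining 8 libraries. Within CD200-high, arterial and type H the mitochondrial genes mostly peaked in the same library. CD200-high replicate 3 was the highest of its population for 13 of 13, arterial replicate 3 for 13 of 13 and type H replicate 3 for 12 of 13. Of the 82 nuclear members, these libraries were the highest for 12, 12 and 27. In the labelled sinusoidal libraries the mitochondrial genes were split, with replicate 1 highest for 9, replicate 2 for 0 and replicate 3 for 4. The share over all genes is not given here.

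In complex IV, mt-Co1 stood at 13.10, 13.14 and 13.60 log2 CPM in arterial replicates 1 to 3. It stood at 12.001, 12.15 and 12.71 in CD200-high, at 12.27, 11.94 and 12.36 in type H and at 12.49, 12.38 and 12.59 in labelled sinusoidal libraries. The arterial libraries lay above all others, and CD200-high replicate 3 was the closest to them. By limma, mt-Co1 was lower in CD200-high than in arterial by 0.99 ± 0.19 (SE) log2 (1.99-fold, adjusted p = 0.00526) and lower in type H than in arterial by 1.09 ± 0.19 (2.13-fold, adjusted p = 0.00168). It was higher in arterial than in labelled sinusoidal libraries by 0.80 ± 0.19 (adjusted p = 0.0183). mt-Co2 averaged 11.11 ± 0.36 (SD, n = 3), 11.07 ± 0.31, 11.98 ± 0.27 and 11.31 ± 0.04 log2 CPM in CD200-high, type H, arterial and labelled sinusoidal libraries. mt-Co3 stood at 12.91, 12.79 and 13.30 in arterial libraries and averaged 12.19 ± 0.28, 12.04 ± 0.33 and 12.33 ± 0.09 in CD200-high, type H and labelled sinusoidal libraries.

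In complex III, mt-Cytb stood at 12.33, 12.35 and 12.82 log2 CPM in the arterial libraries. The CD200-high libraries stood at 11.89, 11.67 and 12.07, the type H at 11.65, 11.37 and 11.78 and the labelled sinusoidal at 11.67, 11.72 and 11.80. Again the arterial libraries did not overlap the rest. The difference from labelled sinusoidal libraries was 0.77 ± 0.15 log2 (limma adjusted p = 0.00649), that of type H from arterial was -0.90 ± 0.15 (adjusted p = 0.00147) and that of CD200-high from arterial was -0.63 ± 0.15 (adjusted p = 0.0186). In complex V, mt-Atp6 averaged 13.10 ± 0.30 log2 CPM (SD, n = 3) in arterial libraries against 12.38 ± 0.39, 12.38 ± 0.16 and 12.31 ± 0.07 in CD200-high, type H and labelled sinusoidal libraries. mt-Atp8 averaged 11.07 ± 0.29 against 10.31 ± 0.37, 10.36 ± 0.17 and 10.25 ± 0.04.

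The mitochondrial genes mt-Nd5 and mt-Nd6, which encode membrane subunits of complex I, had their lowest means in type H, followed by CD200-high. mt-Nd5 stood at 10.63, 10.55 and 11.08 log2 CPM in arterial, 10.26, 9.91 and 10.24 in labelled sinusoidal, 9.37, 9.32 and 10.08 in CD200-high and 9.22, 9.20 and 9.81 in type H libraries. mt-Nd6, in the same order, stood at 8.98, 8.72 and 9.37, at 8.69, 8.16 and 8.46, at 7.45, 7.66 and 8.49 and at 7.47, 7.07 and 7.90. For mt-Nd5 the type H libraries lay below both the arterial and the labelled sinusoidal libraries, while CD200-high replicate 3 lay inside the labelled sinusoidal range. In limma, type H was lower than arterial by 1.35 ± 0.23 log2 for mt-Nd5 (2.54-fold, adjusted p = 0.00185) and by 1.54 ± 0.29 for mt-Nd6 (2.91-fold, adjusted p = 0.00311). The same genes were the mitochondrial members called between type H and labelled sinusoidal libraries, with differences of -0.73 ± 0.23 (adjusted p = 0.0352) and -0.95 ± 0.29 (adjusted p = 0.0278). Their exons overlap on opposite strands in the annotation, and the strand counted is not stated, so their reads cannot be fully separated.

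The remaining complex I genes of the mitochondrial genome also had their highest means in the arterial libraries. Their means follow in the order CD200-high, type H, arterial, labelled sinusoidal. mt-Nd1 averaged 11.37 ± 0.47, 11.24 ± 0.28, 12.28 ± 0.32 and 11.47 ± 0.06 log2 CPM (SD, n = 3), and mt-Nd4l averaged 7.69 ± 0.39, 7.65 ± 0.37, 8.58 ± 0.32 and 7.69 ± 0.12. mt-Nd2 averaged 10.17 ± 0.62, 10.19 ± 0.45, 11.14 ± 0.41 and 9.92 ± 0.21, and mt-Nd4 averaged 10.86 ± 0.47, 10.76 ± 0.41, 11.70 ± 0.36 and 10.70 ± 0.15. Of these, mt-Nd2 was called against labelled sinusoidal libraries only (1.22 ± 0.31 log2 higher in arterial, adjusted p = 0.027), with an adjusted p of 0.0502 for type H against arterial, and mt-Nd4 was called against type H and labelled sinusoidal but not CD200-high (adjusted p = 0.0539). mt-Nd3, at 7.76 ± 0.44, 7.74 ± 0.41, 8.61 ± 0.48 and 7.79 ± 0.22, was the 1 mitochondrial member called in no comparison without a block. Its adjusted p was 0.0538 for type H against arterial, and its arterial replicate 2, at 8.13, lay below CD200-high replicate 3, at 8.27. With the mouse number as a block, limma called mt-Nd3 lower in CD200-high than in arterial (adjusted p = 0.0278), lower in type H (adjusted p = 0.0165) and higher in arterial than in labelled sinusoidal libraries (adjusted p = 0.0367), and mt-Nd2 and mt-Nd4 were then called in all 3 of these comparisons as well.

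**Figure D2:**
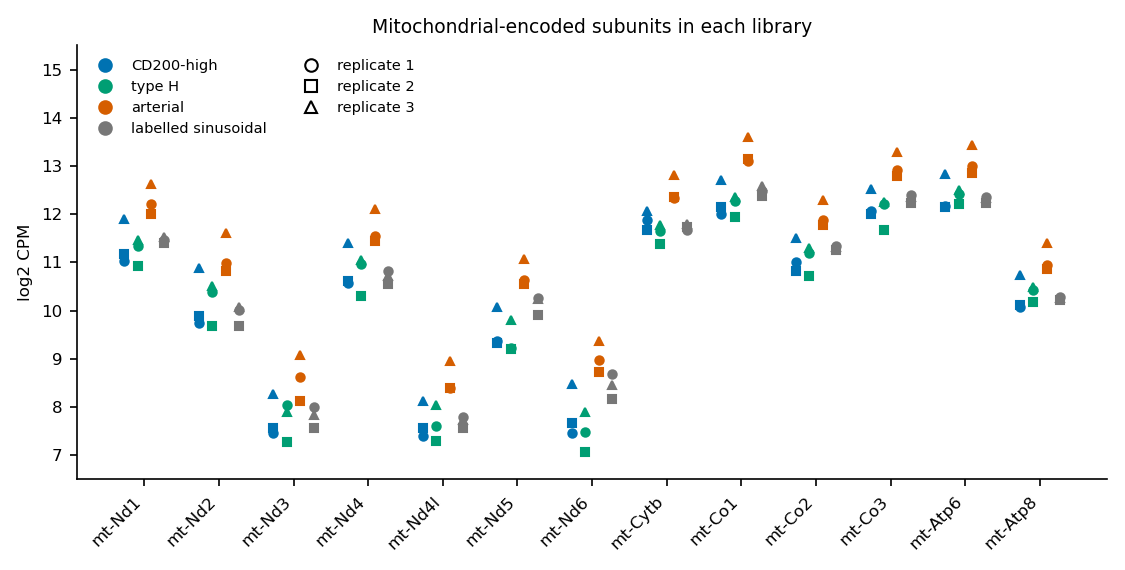
Log2 CPM (vertical axis) of each of the 13 mitochondrial genes (horizontal axis) in the 12 libraries, with a color per population and a shape per replicate number. The arterial points are highest within each gene but for mt-Nd2 and mt-Nd3, where CD200-high replicate 3 reaches them, and replicate 3 is the highest arterial point throughout.

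Genes of the mitochondrial genome lie edge to edge, which bears on how reads are assigned. The annotated exons of mt-Atp8 and mt-Atp6 share 43 bases, shown because a read lying in them belongs to both genes (GENCODE M21 on GRCm38, chrM:7927-7969, + strand, all in lower case since no base is singled out).
mt-Atp8 and mt-Atp6 overlap: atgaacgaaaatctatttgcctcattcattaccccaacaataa
mt-Nd4l and mt-Nd4 share 7 bases. In all, 7 of 13 mitochondrial and 27 of 82 nuclear members overlap an exon of another gene in the table, and how the authors assigned such reads is not given in the sources used here. Nuclear copies of mitochondrial DNA can also take or lend reads. The mitochondrial ribosomal RNAs were not analysed here.

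Levels may be compared between genes only per length. Per kilobase of annotated exon, the population means of the mitochondrial genes ran from 354 CPM (mt-Nd6 in type H) to 13091 CPM (mt-Atp6 in arterial), with a median of 2798 CPM. Those of the nuclear members ran from 0.067 CPM for Cox8b to 722 CPM for Cox8a in labelled sinusoidal libraries, with a median of 94.1 CPM. Exon length here is the union over all annotated transcripts of a gene, such as 6443 bases for Atp5l and 5628 for Ndufb2. Where shorter transcripts carry the reads, the level per kilobase is understated, so the distance between the medians of both genomes is only rough.

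Counted by comparison, all but 2 of the 33 mitochondrial calls involved the arterial population. CD200-high was lower than arterial for 10 of 13 mitochondrial members and higher for 0 (12.9% of all genes were called, 4.75% as higher and 8.15% as lower). Of 82 nuclear members 1 was higher and 1 lower. The median difference was -0.87 log2 over the mitochondrial members, 0.04 over the nuclear members and -0.22 over all genes. Type H was lower than arterial for 11 of 13 mitochondrial members, with 0 higher (20.7% of all genes called, 7.96% higher and 12.7% lower). Of the nuclear members 5 were higher and 3 lower, and the medians were -0.93 for mitochondrial, 0.04 for nuclear members and -0.20 for all genes.

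Arterial was higher than the labelled sinusoidal libraries for 10 of 13 mitochondrial members and lower for 0 (10.2% of all genes called, 8.09% higher and 2.14% lower), while 0 nuclear members were higher and 4 lower. The medians were 0.80 for mitochondrial members, -0.20 for nuclear members and -0.02 for all genes. These 3 comparisons share the arterial libraries, and the number of mitochondrial calls moved with single libraries. Without arterial replicate 3, 2 mitochondrial members were called against CD200-high, 7 against type H and 1 against labelled sinusoidal libraries, and the mitochondrial medians were -0.70, -0.74 and 0.62. Against CD200-high, 5, 3 and 6 were called without CD200-high replicate 1, CD200-high replicate 2 or arterial replicate 1. Against type H, 7 were called without type H replicate 2. Against labelled sinusoidal libraries, 3, 1, 4 and 6 were called without sinusoidal replicate 1, 2 or 3 or arterial replicate 1. In each of the 12 fits that leave out 1 library, 10 of the 33 mitochondrial calls held: mt-Co1 and mt-Nd5 against CD200-high, mt-Cytb against labelled sinusoidal, and mt-Co1, mt-Co2, mt-Co3, mt-Cytb, mt-Nd1, mt-Nd5 and mt-Nd6 against type H. With the mouse number as a block, 13, 13 and 12 mitochondrial members were called in the comparisons of arterial with CD200-high, type H and labelled sinusoidal libraries. Among these was mt-Nd5, higher in arterial than in labelled sinusoidal libraries by 0.62 ± 0.13 log2 (limma adjusted p = 0.0141), a call not made without a block.

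Between CD200-high and type H, limma called 0 of 13 mitochondrial members, 0 had an unadjusted p under 0.05 and 0 were called with voom weights, and of the nuclear members 4 were higher in CD200-high and 7 lower (13% of all genes called, 6.66% higher and 6.35% lower). The medians were 0.10 for mitochondrial members, -0.05 for nuclear members and -0.05 for all genes. Between CD200-high and labelled sinusoidal libraries, limma called 0 mitochondrial members, 1 had an unadjusted p under 0.05 and 0 were called with voom weights, and 3 nuclear members were higher in CD200-high and 9 lower (28.7% of all genes called, 14.1% higher and 14.6% lower). The medians were -0.03 for mitochondrial members, -0.23 for nuclear members and -0.22 for all genes. The mitochondrial result moved with the setting: 2 members were lower in CD200-high under either other scaling (medians -0.34 and -0.35), 1 with the mouse number as a block (mt-Nd5, adjusted p = 0.0116), 2 without CD200-high replicate 3 (median -0.28) and 3 without the 2 shallowest libraries, while the median was 0.12 without CD200-high replicate 1. Between type H and labelled sinusoidal libraries, 0 mitochondrial members were higher in type H and 2 lower, and of the nuclear members 2 were higher and 11 lower (28.6% of all genes called, 13.9% higher and 14.6% lower). Medians were -0.13 for mitochondrial members, -0.17 for nuclear members and -0.20 for all genes. In every comparison the libraries of each called member did not overlap between the populations compared. With 3 libraries per population a call itself favors such separation, so it adds no support to the calls. Its share over all called genes is not given here.

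**Figure D3:**
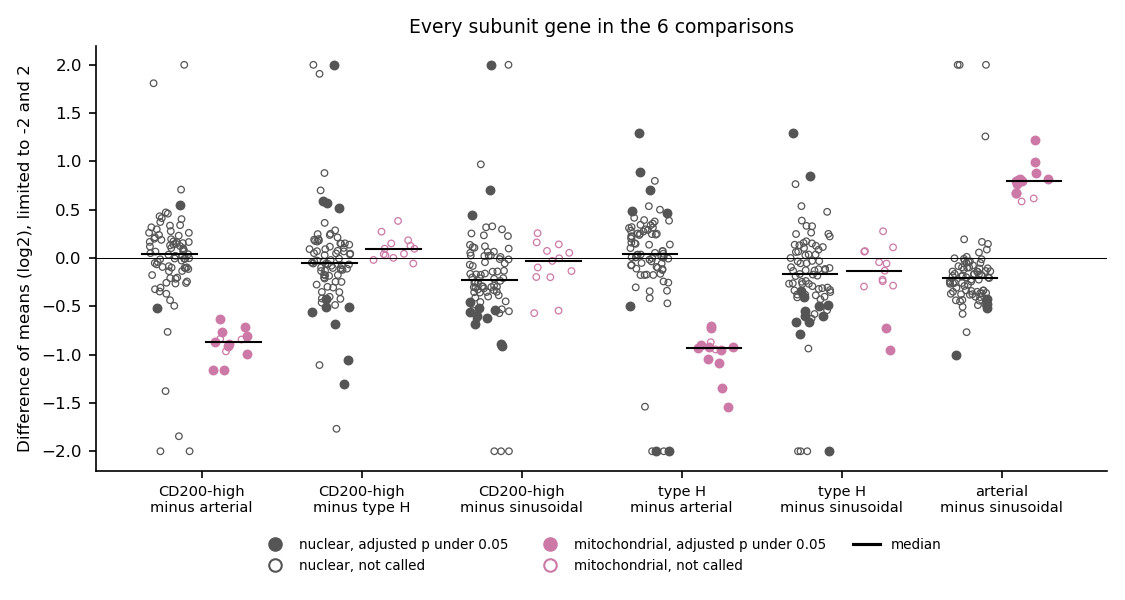
Difference of population means in log2 (vertical axis, values beyond -2 and 2 drawn at those limits) for the nuclear (grey) and mitochondrial (pink) members in the 6 comparisons, filled where the limma adjusted p is under 0.05, with a line at each median. The pink medians stand at -0.87, -0.93 and 0.80 in the comparisons that involve arterial cells, where the grey medians stay between -0.20 and 0.04.

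The nuclear subunit genes differed less between populations than genes at large. The span between a gene's highest and lowest population mean had a median of 0.48 log2 over the 82 nuclear members and 2.23 over all genes tested. Among genes with a mean of 5 to 9 log2 CPM, the medians were 0.45 over 75 nuclear members and 1.06 over 5138 genes. The span was under 0.5 for 46 nuclear members, 0.5 to 1 for 26, 1 to 2 for 4 and at least 2 for 6. The highest population mean was that of the labelled sinusoidal libraries for 43 members, of type H for 21, of CD200-high for 14 and of arterial for 4. A call in at least 1 comparison was made for 27 of the 82 (32.9%) and in none for 55, against 46.6% of all genes with a call in at least 1.

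**Figure D4:**
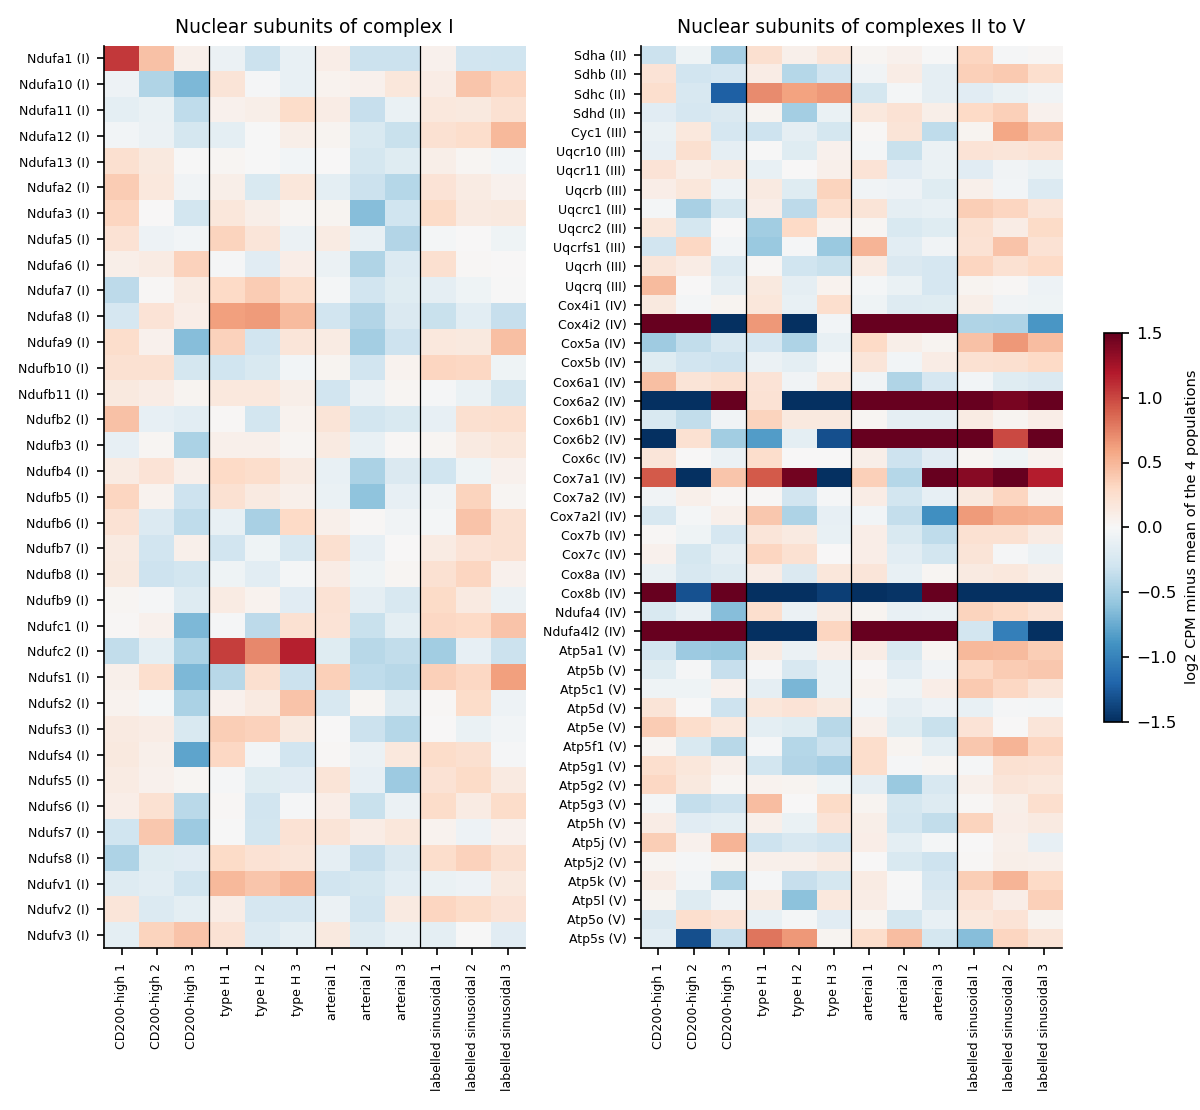
Log2 CPM of each nuclear member minus the mean of its 4 population means, in the 12 libraries, with complex I on the left and complexes II to V on the right and colors limited to -1.5 and 1.5. Most rows are pale, Ndufc2 and Ndufa8 are red in the type H columns, and the strongest colors are those of Ndufa4l2, Cox6a2, Cox6b2, Cox4i2, Cox7a1 and Cox8b, whose reads are few.

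In complex I, Ndufc2 and Ndufa8 were the nuclear members called higher in type H than in each of the other populations, where 2.89% of all genes were. Both encode accessory subunits, Ndufc2 in the membrane arm and Ndufa8 on the intermembrane face. Ndufc2 stood at 8.0002, 7.68 and 8.13 log2 CPM in type H, and at 6.59, 6.82 and 6.48 in CD200-high, 6.78, 6.54 and 6.59 in arterial and 6.44, 6.84 and 6.64 in labelled sinusoidal libraries. The type H libraries lay apart from 9 others that shared 1 range. In limma, Ndufc2 was higher in type H by 1.31 ± 0.18 log2 than in CD200-high (2.47-fold, adjusted p = 0.000583), by 1.30 ± 0.18 than in arterial (adjusted p = 0.000473) and by 1.30 ± 0.18 than in labelled sinusoidal libraries (adjusted p = 0.000233). These 3 calls held in all 12 leave-one-out fits and under the 7 other settings tried.

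Ndufa8 stood at 7.59, 7.61 and 7.44 log2 CPM in type H libraries. It stood at 6.72, 7.17 and 7.07 in CD200-high, 6.68, 6.53 and 6.75 in arterial and 6.63, 6.81 and 6.63 in labelled sinusoidal libraries. The type H libraries were above all others, and CD200-high replicates 2 and 3 came next. The limma differences were 0.89 ± 0.16 log2 from arterial (adjusted p = 0.0026) and 0.85 ± 0.16 from labelled sinusoidal libraries (adjusted p = 0.0021), and both held in all 12 leave-one-out fits. That between CD200-high and type H, -0.56 ± 0.16 (adjusted p = 0.0438), was called in 1 of the 12, with adjusted p up to 0.149 over all alternatives.

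The stretches of 250 bases before the RefSeq starts of Ndufc2 and Ndufa8, both called highest in type H, are shown, followed by that of Atp5g1, called lowest there (GRCm38.p6, each on the strand of its gene). These were 2 and 1 of the 82 nuclear members, shares no higher than the 2.89% and 2.22% of all genes. No shared control of these genes was tested. Capitals mark a motif found by search on both strands: GCATGCGC, the core bound by NRF1, and CACGTG, the E-box. CCGGAAG, an ETS site bound by GABP, was searched as well.
Ndufc2, chr7:97399753-97400002, + strand: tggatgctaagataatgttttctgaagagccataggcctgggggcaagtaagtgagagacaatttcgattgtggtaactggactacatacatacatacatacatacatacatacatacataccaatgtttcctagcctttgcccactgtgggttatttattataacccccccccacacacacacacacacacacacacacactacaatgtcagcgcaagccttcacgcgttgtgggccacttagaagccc
Ndufa8, chr2:36049339-36049588, - strand: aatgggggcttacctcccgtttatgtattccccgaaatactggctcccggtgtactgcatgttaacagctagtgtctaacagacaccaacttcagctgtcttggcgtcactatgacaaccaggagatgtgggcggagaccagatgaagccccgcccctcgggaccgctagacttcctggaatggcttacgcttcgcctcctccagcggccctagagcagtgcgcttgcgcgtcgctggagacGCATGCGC
Atp5g1, chr11:96075632-96075881, - strand: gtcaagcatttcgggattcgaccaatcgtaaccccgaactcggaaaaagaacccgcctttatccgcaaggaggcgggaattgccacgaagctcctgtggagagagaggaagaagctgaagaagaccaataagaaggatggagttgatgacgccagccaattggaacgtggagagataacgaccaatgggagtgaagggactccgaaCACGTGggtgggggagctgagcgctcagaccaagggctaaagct
The NRF1 core of Ndufa8 starts 8 bases before the gene's start and the E-box of Atp5g1 44 bases before it, while none of the 3 motifs is spelled in the Ndufc2 stretch. RefSeq promoters matched 65 of the 82 nuclear members by symbol. GCATGCGC was held by 8 of these 65 (12.3%) and by 2.32% of 27025 promoters, CCGGAAG by 11 (16.9%) and 7.05%, and CACGTG by 5 (7.69%) and 6.05%. A match is a spelling in the window and not a measured site.

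The next gene downstream of Ndufc2 in the annotation is Thrsp, a regulator of fatty acid synthesis, 5135 bp away on the opposite strand. Thrsp held 3674, 2132 and 2777 reads in type H libraries, 421, 755 and 676 in CD200-high, 364, 1225 and 271 in arterial and 43, 38 and 0 in labelled sinusoidal libraries. Its limma adjusted p for type H was 0.546 against CD200-high, 0.297 against arterial and 0.000573 against labelled sinusoidal libraries. Morn5 lies 51 bp upstream of Ndufa8 on the opposite strand. The part of reads from neighbouring genes in these differences was not tested.

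Other complex I members differed by less. Ndufv1, the flavin-bearing subunit that receives electrons from NADH, stood at 6.55, 6.49 and 6.56 log2 CPM in type H and between 5.77 and 6.21 in the other 9 libraries. It was higher in type H than in arterial by 0.70 ± 0.17 log2 (limma adjusted p = 0.0132) and lower in CD200-high than in type H by 0.68 ± 0.17 (adjusted p = 0.0224). Its difference from labelled sinusoidal libraries was not called. Ndufs8, an iron-sulfur subunit, stood at 7.07, 7.35 and 7.36 in CD200-high, 7.39, 7.18 and 7.32 in arterial, 7.82, 7.75 and 7.71 in type H and 7.79, 7.88 and 7.77 in labelled sinusoidal libraries. It was thus high in one pair of populations and low in the other, with 4 called differences of 0.46 to 0.56 log2 in size. Ndufa7 was higher in type H than in arterial by 0.49 ± 0.16 (adjusted p = 0.0474), a call kept in 2 of 12 leave-one-out fits. Ndufa1 was higher in CD200-high than in labelled sinusoidal libraries by 0.70 ± 0.24 (adjusted p = 0.0435), kept in 4. Ndufa10 was lower in CD200-high than in labelled sinusoidal libraries by 0.68 ± 0.22 (adjusted p = 0.035), kept in 7.

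Complex II has no mitochondrial subunit. Sdhc, which anchors the enzyme in the membrane, stood at 6.77, 6.28 and 5.29 log2 CPM in CD200-high and at 7.22, 7.12 and 7.17 in type H libraries. Arterial libraries stood at 6.26, 6.48 and 6.38 and labelled sinusoidal at 6.34, 6.41 and 6.46. Only the difference between CD200-high and type H was called (-1.06 ± 0.30 log2, limma adjusted p = 0.0361), and it was kept in 2 of 12 leave-one-out fits. The other anchor, Sdhd, was lower in CD200-high than in labelled sinusoidal libraries by 0.45 ± 0.15 (adjusted p = 0.0451, kept in 3 of 12). Sdha, the succinate-binding flavoprotein, and Sdhb, the iron-sulfur subunit, were called in no comparison, with adjusted p of at least 0.0833 and 0.0556.

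Of the 9 nuclear members of complex III, 2 were called, both lower in type H than in labelled sinusoidal libraries. Uqcrfs1, the Rieske iron-sulfur protein, stood at 6.92, 7.47 and 6.93 log2 CPM in type H and at 7.70, 7.91 and 7.69 in labelled sinusoidal libraries. The difference was -0.66 ± 0.23 log2 (limma adjusted p = 0.0472, kept in 5 of 12 leave-one-out fits). Uqcrh, the hinge protein, differed by -0.49 ± 0.17 (adjusted p = 0.0455, kept in 4). The core proteins Uqcrc1 and Uqcrc2 and cytochrome c1 (Cyc1) were not called.

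In complex IV, Cox5a, a nuclear subunit on the matrix side, was lowest in CD200-high and type H and highest in labelled sinusoidal libraries. It stood at 7.02, 7.18 and 7.31 log2 CPM in CD200-high, 7.29, 7.09 and 7.44 in type H, 7.85, 7.63 and 7.59 in arterial and 7.99, 8.19 and 8.01 in labelled sinusoidal libraries. CD200-high and type H overlapped, and the arterial libraries lay between these and the labelled sinusoidal libraries, with no call against the latter (adjusted p = 0.156) or against type H (adjusted p = 0.0718). Cox5a was lower than in labelled sinusoidal libraries by 0.89 ± 0.15 log2 in CD200-high (limma adjusted p = 0.000989) and by 0.79 ± 0.15 in type H (adjusted p = 0.00198), and lower in CD200-high than in arterial by 0.52 ± 0.15 (adjusted p = 0.0414, kept in 3 of 12 leave-one-out fits). Cox5b was lower than in labelled sinusoidal libraries by 0.52 ± 0.12 in CD200-high (adjusted p = 0.00663) and by 0.35 ± 0.12 in type H (adjusted p = 0.047). Cox7a2l stood at 7.29, 6.98 and 6.42 in arterial and at 7.97, 7.88 and 7.86 in labelled sinusoidal libraries. It was lower in arterial by 1.01 ± 0.25 (adjusted p = 0.0243), a call kept in 7 of 12 leave-one-out fits.

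Several complex IV subunits come in a widespread and a tissue-restricted form. The widespread forms Cox4i1, Cox6a1, Cox6b1, Cox7a2 and Cox8a averaged above 7 log2 CPM in each population, and their called differences were at most 0.55 log2 in size. Cox6a1 stood at 8.97, 8.70 and 8.75 in CD200-high and at 8.46, 8.06 and 8.26 in arterial libraries, a difference of 0.55 ± 0.14 (limma adjusted p = 0.0232). It was also higher in CD200-high than in labelled sinusoidal libraries, by 0.44 ± 0.14 (adjusted p = 0.0322). Cox6b1 was lower in CD200-high than in type H by 0.43 ± 0.12 (adjusted p = 0.0378, kept in 2 of 12 leave-one-out fits). Cox4i1, Cox7a2 and Cox8a were called in no comparison.

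The widest single difference of a member was that of Ndufa4l2 between CD200-high and type H. Ndufa4l2 is a paralog of Ndufa4 known to be induced by hypoxia and found in pericytes. Ndufa4l2 had 915, 436 and 199 reads in CD200-high, 177, 140 and 115 in arterial, 43, 35 and 10 in labelled sinusoidal and 0, 0 and 56 in type H libraries. CD200-high lay above all other libraries, and type H replicate 3 held the only reads of its population. In limma CD200-high exceeded type H by 8.26 ± 1.63 log2 (adjusted p = 0.00578) and than in labelled sinusoidal libraries by 5.12 ± 1.63 (adjusted p = 0.0353, kept in 5 of 12 leave-one-out fits), and lower in type H than in arterial by 6.24 ± 1.63 (adjusted p = 0.0186, kept in 8). The size of such differences depends on the 0.5 read added to libraries with no read, where 3 reads, or 0.154 and 0.167 CPM in type H replicates 1 and 2, is the limit that a count of 0 allows. Its exons overlap those of Shmt2 on the opposite strand. Shmt2 had 331, 402 and 134 reads in CD200-high, 336, 85 and 203 in type H, 503, 497 and 301 in arterial and 546, 891 and 833 in labelled sinusoidal libraries.

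Mural cell transcripts (11 of 12 listed markers in the table) summed to 0.0401% to 0.0537% of reads in CD200-high, 0.264% to 0.307% in the type H, 0.0337% to 0.0443% in the arterial and 0.00571% to 0.00845% in labelled sinusoidal libraries, where Myh11 was at 0. The markers did not move together: of the 11, 2 were called higher and 2 lower in CD200-high than in type H. Kcnj8 had 24046 to 32435 reads in type H against 409 to 1645 in CD200-high, and Abcc9 15590 to 22335 against 298 to 1100. Cspg4 had 1502, 769 and 532 reads in CD200-high against 2, 0 and 0 in type H, and Rgs5 817, 648 and 166 against 111, 0 and 0. The part of mural cells in the Ndufa4l2 reads was not tested. Ndufa4 itself stood at 7.80, 7.91 and 7.38 log2 CPM in CD200-high and at 8.36, 8.32 and 8.23 in labelled sinusoidal libraries, lower by 0.60 ± 0.16 (limma adjusted p = 0.013). It was called in none of the other 5 comparisons.

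Cox6a2 and Cox6b2, forms known from striated muscle and from testis, had more reads in arterial and labelled sinusoidal libraries. Cox6a2 had 152, 163 and 173 reads in arterial, 93, 68 and 176 in labelled sinusoidal, 23, 0 and 0 in type H and 0, 0 and 28 in CD200-high libraries. It was lower in type H than in arterial by 6.86 ± 1.92 log2 (limma adjusted p = 0.0254, kept in 7 of 12 leave-one-out fits) and than in labelled sinusoidal libraries by 5.60 ± 1.92 (adjusted p = 0.0473, kept in 4). Its exons overlap Itgad on the opposite strand, which had 155, 275 and 33 reads in arterial, 23, 45 and 11 in labelled sinusoidal, 0 in each type H and 37, 0 and 0 in CD200-high libraries. Skeletal muscle transcripts (10 of 14 markers in the table) summed to 0.00550% to 0.00919% of reads in arterial, 0.00266% to 0.0130% in labelled sinusoidal, 0.00199% to 0.0113% in CD200-high and 0.000963% to 0.00291% in type H libraries, with Ckm at 0 in CD200-high and Tnnc2 at 0 in type H. Their part in the Cox6a2 reads was not tested.

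Cox6b2 had 468, 379 and 206 reads in arterial, 402, 358 and 643 in labelled sinusoidal, 79, 119 and 45 in type H and 0, 123 and 34 in CD200-high libraries. The last 6 lay below the first 6 in log2 CPM, yet no comparison called it, the lowest limma adjusted p being 0.0627. Cox4i2, the form known from lung and oxygen-sensing cells, had 51, 59 and 34 reads in arterial and 0 to 44 elsewhere. Cox7a1, a heart and muscle form, had 0 to 85 reads, and Cox8b 13, 0 and 23 reads in CD200-high, 0, 0 and 35 in arterial and 0 in each type H and labelled sinusoidal library. None of these 3 was called in any comparison.

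**Figure D5:**
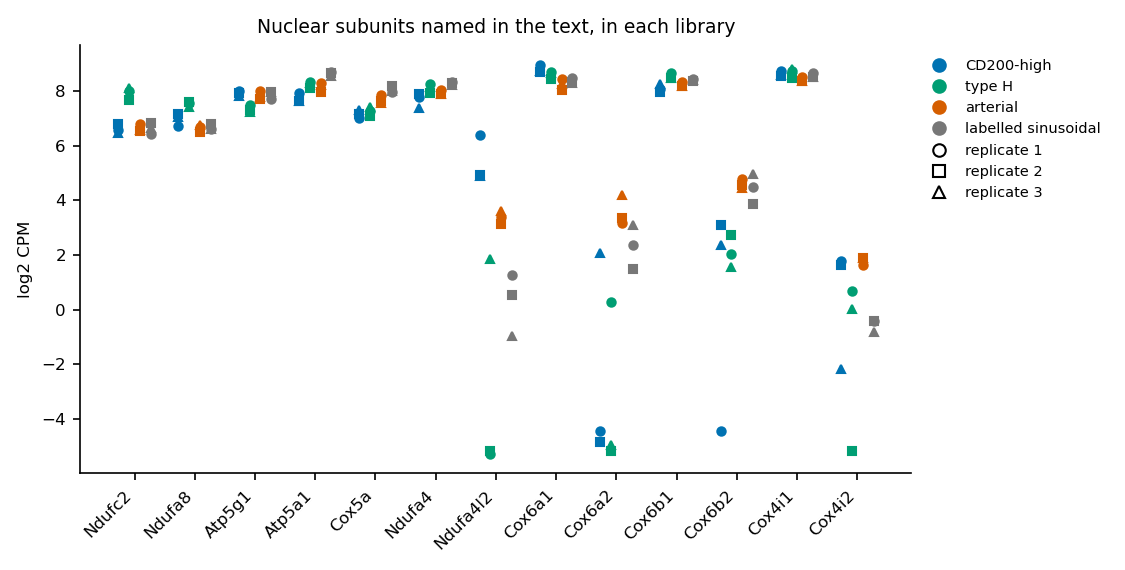
Log2 CPM (vertical axis) of 13 nuclear members in the 12 libraries, with a color per population and a shape per replicate number. Ndufc2 and Ndufa8 are highest in type H, Atp5a1 and Cox5a in labelled sinusoidal libraries, and the tissue-restricted forms Ndufa4l2, Cox6a2, Cox6b2 and Cox4i2 scatter far more than their widespread counterparts, with points near -5 where no read was listed.

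In complex V, the catalytic head was highest in the labelled sinusoidal libraries. Atp5a1 and Atp5b, its alpha and beta subunits, were called higher there than in each of the other populations, where 1.29% of all genes were. Atp5a1 stood at 8.69, 8.68 and 8.58 log2 CPM in labelled sinusoidal, 8.33, 8.12 and 8.30 in type H, 8.32, 7.98 and 8.23 in arterial and 7.93, 7.66 and 7.63 in CD200-high libraries. The type H and arterial libraries overlapped, and the CD200-high libraries lay below all others. In limma, CD200-high was lower than labelled sinusoidal by 0.91 ± 0.14 log2 (adjusted p = 0.000453), a call kept in all 12 leave-one-out fits, and lower than type H by 0.51 ± 0.14 (adjusted p = 0.029, kept in 8). Type H was lower than labelled sinusoidal by 0.40 ± 0.14 (adjusted p = 0.0459) and arterial by 0.47 ± 0.14 (adjusted p = 0.0482), each kept in 4. The exons of Atp5a1 overlap Haus1 on the opposite strand.

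Atp5b was lower than in labelled sinusoidal libraries by 0.54 ± 0.12 log2 in CD200-high (limma adjusted p = 0.00593), by 0.48 ± 0.12 in type H (adjusted p = 0.0102) and by 0.43 ± 0.12 in arterial (adjusted p = 0.0444). The last was kept in 3 of 12 leave-one-out fits and the others in all 12. Atp5f1, of the peripheral stalk, was lower than in labelled sinusoidal libraries by 0.62 ± 0.17 in CD200-high (adjusted p = 0.0179) and by 0.66 ± 0.17 in type H (adjusted p = 0.0112). Atp5c1, the rotating central shaft, and Atp5k were lower in type H than in labelled sinusoidal libraries by 0.60 ± 0.17 and 0.60 ± 0.19 (adjusted p = 0.0175 and 0.0371). The exons of Atp5f1 overlap Wdr77 on the opposite strand.

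Atp5g1, 1 of the genes for the membrane c-ring, was called lower in type H than in each of the other populations, as 2.22% of all genes were. It stood at 7.48, 7.31 and 7.26 log2 CPM in type H, 8.003, 7.92 and 7.83 in CD200-high, 8.02, 7.73 and 7.78 in arterial and 7.73, 7.98 and 7.97 in labelled sinusoidal libraries. The type H libraries lay below the other 9, which overlapped one another. The limma differences were 0.57 ± 0.14 log2 for CD200-high above type H (adjusted p = 0.0184), -0.50 ± 0.14 for type H against arterial (adjusted p = 0.0245) and -0.55 ± 0.14 for type H against labelled sinusoidal libraries (adjusted p = 0.0109). They held in 10, 9 and 12 of the 12 leave-one-out fits. Atp5g2 and Atp5g3, which encode the same mature c subunit, were called in no comparison, with lowest adjusted p of 0.0612 and 0.0675. Atp5j, also of the peripheral stalk, was above its type H level in CD200-high by 0.59 ± 0.14 (adjusted p = 0.0132), and Atp5e, of the central stalk, by 0.52 ± 0.15 (adjusted p = 0.0401, kept in 3 of 12). The exons of Atp5j overlap Gabpa on the opposite strand.

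Genes that build, regulate or feed the chain were counted from lists that the symbol rule does not reach. Of 47 assembly factors, 1 was higher and 1 lower in CD200-high than in arterial, 1 and 2 than in type H, and 1 and 7 than in labelled sinusoidal libraries. Type H was higher than arterial for 3 and lower for 1, and higher than labelled sinusoidal for 0 and lower for 5, and arterial was higher than labelled sinusoidal for 0 and lower for 1. The shares called were 4.26%, 6.38%, 17.02%, 8.51%, 10.6% and 2.13% in these 6 comparisons, against 12.9%, 13%, 28.7%, 20.7%, 28.6% and 10.2% of all genes; the same all-gene shares apply to the lists that follow. Sco2, a copper carrier for complex IV, averaged 6.66 ± 0.08 log2 CPM (SD, n = 3) in CD200-high, 5.72 ± 0.31 in the type H, 5.08 ± 0.30 in the arterial and 5.64 ± 0.18 in labelled sinusoidal libraries. It was higher in CD200-high than in arterial by 1.58 ± 0.24 (limma adjusted p = 0.00155), than in labelled sinusoidal by 1.02 ± 0.24 (adjusted p = 0.00768) and than in type H by 0.94 ± 0.24 (adjusted p = 0.0228). Coa5, another complex IV assembly factor, was lower in CD200-high than in labelled sinusoidal libraries by 1.39 ± 0.19 (adjusted p = 0.000199), and Cox15, which makes heme A, was higher in type H than in arterial by 1.07 ± 0.20 (adjusted p = 0.00342).

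The genes that copy, transcribe and stabilize mitochondrial DNA and RNA (24 of 26 in the table) had at most 16.7% of members called in any comparison. In CD200-high against arterial limma called 0 of 24 (2 at an unadjusted p under 0.05), in arterial against labelled sinusoidal 0 (6 at an unadjusted p under 0.05), and in type H against arterial 1 was lower. That gene was Tfb1m, a ribosomal RNA methyltransferase of mitochondria, with a difference of -5.26 ± 1.31 log2 (limma adjusted p = 0.0148). Tfb1m averaged -2.12 ± 2.90 log2 CPM (SD, n = 3) in type H and 3.14 ± 0.98 in arterial libraries. At a type H level this low, the size of the difference depends on the part of a read added to each count, as for Ndufa4l2. Tfam, which packages mitochondrial DNA and starts its transcription, had 337, 1000 and 462 reads in CD200-high, 853, 839 and 686 in type H, 513, 463 and 453 in arterial and 1339, 1655 and 1335 in labelled sinusoidal libraries. In CD200-high against labelled sinusoidal libraries 0 were higher and 4 lower (16.7%, against 28.7% of all genes), in CD200-high against type H 1 was higher and 0 lower, and in type H against labelled sinusoidal 0 were higher and 1 lower. The single call in each comparison with type H was that of Tfb1m, and these calls share its low and widely spread type H values. Slirp, an RNA-stabilizing protein, was lower in CD200-high than in labelled sinusoidal libraries by 0.71 ± 0.20 (adjusted p = 0.0196), as were Ssbp1, the single-strand DNA binding protein, by 0.70 ± 0.23 (adjusted p = 0.04) and Polg, the DNA polymerase, by 0.90 ± 0.31 (adjusted p = 0.0466).

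Among nuclear regulators of respiratory genes (11 of 14 in the table), limma called 0 in CD200-high against arterial (0 at an unadjusted p under 0.05) and 0 in type H against arterial (2 at an unadjusted p under 0.05). Hcfc1, a cofactor of promoter-bound activators, was lower than in labelled sinusoidal libraries by 1.29 ± 0.27 log2 in CD200-high (limma adjusted p = 0.00394) and by 1.06 ± 0.27 in arterial (adjusted p = 0.0262), and Gabpb1, a GABP subunit, by 1.22 ± 0.34 and 1.29 ± 0.34 (adjusted p = 0.0198 and 0.0326). Yy1 was lower in CD200-high than in type H by 1.18 ± 0.33 (adjusted p = 0.0363). The coactivator gene Ppargc1a had 129, 198 and 132 reads in labelled sinusoidal, 0, 1 and 0 in type H, 88, 0 and 81 in arterial and 140, 1 and 6 in CD200-high libraries. Its libraries thus spread widely within the arterial and CD200-high populations.

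Of the 19 genes of the TCA cycle and pyruvate entry, which supply NADH and succinate, limma called 0 in CD200-high against arterial (2 at an unadjusted p under 0.05) and 0 against type H (3 at an unadjusted p under 0.05). Against labelled sinusoidal libraries CD200-high was lower for 2, type H for 3 and arterial for 1, with 0 higher in each, and type H was higher than arterial for 2 and lower for 1. Suclg2, of succinyl-CoA ligase, was higher in type H than in arterial by 1.30 ± 0.36 log2 (limma adjusted p = 0.0239) and Mpc1, of the pyruvate carrier, lower by 0.81 ± 0.19 (adjusted p = 0.0112). Fh1, fumarase, was lower in CD200-high than in labelled sinusoidal libraries by 1.47 ± 0.40 (adjusted p = 0.0163). Of 11 electron and nucleotide carriers, CD200-high and type H were each lower than labelled sinusoidal libraries for 5 and higher for 1 (54.5% called in each, against 28.7% and 28.6% of all genes). CD200-high was lower than arterial for 2 and higher for 0 (18.2%), and type H was lower for 3 and higher for 1 (36.4%). Ucp2, an uncoupling-protein family carrier abundant in blood cells, averaged 6.52 ± 0.43 log2 CPM (SD, n = 3) in CD200-high, 6.73 ± 0.04 in the type H, 8.61 ± 0.34 in the arterial and 9.88 ± 0.06 in labelled sinusoidal libraries. It was lower than in labelled sinusoidal libraries by 3.35 ± 0.21 in CD200-high (limma adjusted p = 1.13e-06) and by 1.27 ± 0.21 in arterial (adjusted p = 0.0026). Cycs, cytochrome c, was lower than in arterial by 0.45 ± 0.12 in CD200-high (adjusted p = 0.0274) and by 0.44 ± 0.12 in type H (adjusted p = 0.0204). Etfb, which passes electrons from fatty acid oxidation, was lower than in labelled sinusoidal libraries by 0.97 ± 0.19 in CD200-high (adjusted p = 0.00279) and by 0.97 ± 0.19 in type H (adjusted p = 0.00244). Slc25a5, an ADP/ATP carrier, was lower in type H than in labelled sinusoidal libraries by 0.75 ± 0.13 (adjusted p = 0.0009).

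The 78 genes for mitochondrial ribosomal proteins, which translate the 13 mitochondrial messages were also counted. In arterial against labelled sinusoidal libraries 0 were higher and 2 lower, with a median of -0.30 log2 against 0.80 for the mitochondrial members. In CD200-high against arterial 2 were higher and 2 lower, with a median of -0.12, and in type H against arterial 4 were higher and 3 lower, with a median of -0.01. Against labelled sinusoidal libraries 3 were higher and 12 lower in CD200-high (median -0.40), and 4 were higher and 11 lower in type H (median -0.33), a share of 19.2% called in each. CD200-high was higher than type H for 3 and lower for 3. Mrpl52, of the large subunit, was higher in type H than in arterial by 1.32 ± 0.22 (limma adjusted p = 0.00135) and than in labelled sinusoidal libraries by 1.35 ± 0.22 (adjusted p = 0.000633). Mrps9, of the small subunit, was lower in CD200-high than in labelled sinusoidal libraries by 2.74 ± 0.40 (adjusted p = 0.000353), than in arterial by 2.25 ± 0.40 (adjusted p = 0.00384) and than in type H by 2.01 ± 0.40 (adjusted p = 0.00563).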

How the data were processed

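The authors deposited 1 table of 17362 genes by 12 libraries in log2 units: log2 CPM with 0.5 read added to each count and a library size of the authors' own scaling, which gave whole reads within 0.01 for 100% of values. Per the submitters' processing notes, Trimmomatic, STAR, SAMtools, deepTools, featureCounts and R 4.3 were used. The notes name a human build although the samples are mouse, and the strand, the scaling and the annotation are not given in the sources used here. The plan had allowed for normalised counts, and the log2 values were tested as they stand.

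The filter asked for 3 or more libraries with 10 or more reads after scaling to the mean library size of 15.9 M, that is 0.63 CPM. It kept 17086 genes and removed 276. limma 3.58.1 in R 4.3.3 was run with a mean-variance trend, 4 population means and all 12 libraries in 1 fit, and p-values were adjusted by Benjamini-Hochberg within each comparison. The fit was tested on simulated data. Populations were taken from the sample titles. Reads were recovered as whole numbers, and a share is a gene set's percent of a library's listed reads. Depth was 7.33 M to 21.6 M listed reads (M, 1000000). Limits from 0 reads describe counting error alone, as molecules were not tagged. Overlaps and exon lengths come from GENCODE M21, in which all 95 members were found by symbol, and promoters from RefSeq.

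Genes to be named were all mitochondrial members, tissue-restricted forms with their counterparts, the 4 Sdh genes, per comparison up to 6 called nuclear rises and 6 falls averaging at least 100 reads in the higher population, and up to 3 called genes of each other list, of which a part is printed. Thrsp, Morn5, Shmt2, Itgad, Tfam and the remaining members given as called or not called were chosen after their values were seen. The members and lists were chosen with earlier results of these data known. Alternatives were a pseudocount of 1 CPM, no filter, only the 2 populations compared, a replicate block, voom weights, 2 other scalings and leaving out each library.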

Additional observations from a re-analysis of the deposited data

How the results depend on the processing

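Members called in the order CD200-high against arterial, type H and labelled sinusoidal, type H against arterial and labelled sinusoidal, and arterial against labelled sinusoidal libraries numbered 12, 11, 12, 19, 15 and 14. Leaving out 1 library gave 2 to 17, 3 to 10, 6 to 13, 10 to 22, 7 to 19 and 1 to 14. The counts fell by over 1.5 times for CD200-high against arterial without arterial replicate 3 (2), CD200-high replicate 1 or 2 (6 each) or arterial replicate 1 (7), and for CD200-high against type H without type H replicate 3 (3) or 1 (4), and to 7 without CD200-high replicate 1, type H replicate 2, arterial replicate 2 or any labelled sinusoidal library. For CD200-high against labelled sinusoidal this held without sinusoidal replicate 2 (6), for type H against arterial without type H replicate 2 (10) or arterial replicate 3 (11), and for type H against labelled sinusoidal without sinusoidal replicate 1 or 3 or type H replicate 2 (7 each) or sinusoidal replicate 2 (8). For arterial against labelled sinusoidal it held without arterial replicate 3 or sinusoidal replicate 2 (1 each), sinusoidal replicate 1 (3) or 3 (4), arterial replicate 2 (7), arterial replicate 1 (9) or type H replicate 1 (9). Fewer samples enter such fits, and no call of a named member reversed its direction in them. Fitting only the 2 populations compared gave 6 for CD200-high against arterial and 1 for CD200-high against type H, with fewer samples to estimate the spread. With voom weights, 23 were called for type H against labelled sinusoidal; the cause was not tested.

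Scaling to all listed reads, or to those outside the mitochondrial genes, moved the median of all genes, for CD200-high against labelled sinusoidal from -0.22 to -0.53 and -0.54 and for CD200-high against arterial from -0.22 to -0.41 and -0.45. It gave 19 and 21 members for CD200-high against arterial (0 higher in each), 39 and 40 for CD200-high against labelled sinusoidal (1 higher and 38 or 39 lower) and 28 and 28 for type H against labelled sinusoidal (2 higher, 26 lower). Of the calls between type H and arterial 3 were then higher and 16 or 17 lower, between CD200-high and type H 2 or 1 higher and 10 lower, and between arterial and labelled sinusoidal 6 higher and 7 lower. The nuclear median turned from 0.04 to -0.15 and -0.19 for CD200-high against arterial and from 0.04 to -0.01 and -0.05 for type H against arterial, still above the median of all genes. The mitochondrial median was -1.06 and -1.10 for CD200-high against arterial, -0.99 and -1.03 for type H against arterial and 0.67 and 0.70 for arterial against labelled sinusoidal; for CD200-high against type H it turned from 0.10 to -0.04 and -0.04, for CD200-high against labelled sinusoidal it went from -0.03 to -0.34 and -0.35, and for type H against labelled sinusoidal from -0.13 to -0.31 and -0.32.

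Chosen after seeing the data, leaving out the 2 shallowest libraries (arterial and CD200-high replicate 3) gave 7 for CD200-high against type H and 6, all mitochondrial, for arterial against labelled sinusoidal, and leaving out the labelled sinusoidal libraries gave 4 for CD200-high against type H. The populations share mouse numbers 1 to 3, but over 18 same-numbered pairs the correlation of deviations over 9846 genes ran from -0.04 to 0.11. No source says that a number is 1 animal, so the numbers were not taken as pairs. The correlation does not speak for the mitochondrial members alone. Replicate 3 was highest for 13, 13, 12 and 4 of these 13 in CD200-high, arterial, type H and labelled sinusoidal libraries. The neutrophil share was also highest in replicate 3 of each population. What the libraries numbered 3 have in common was not tested. With the replicate block, the counts were 16, 11, 13, 21, 13 and 15. The block ended the calls of Cox5a between CD200-high and arterial, Ndufa8 between CD200-high and type H, Ndufa10 and Sdhd between CD200-high and labelled sinusoidal, Ndufa7 between type H and arterial, Cox5b, Cox6a2 and Uqcrfs1 between type H and labelled sinusoidal and Atp5b between arterial and labelled sinusoidal libraries. Of the 83 calls, 28 held in every leave-one-out fit and 26 of these under all 7 other settings. Over those settings 520 of 581 member results kept their call, 61 lost it and 0 reversed. Depth limits Ndufa4l2, Cox6a2, Cox6b2, Cox4i2, Cox7a1 and Cox8b, whose libraries include counts of 0.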
